A study of Mus musculus with 18 samples.

Results

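The proximal tubule of the kidney takes back nearly all of the glucose and amino acids that the glomerulus filters, and it also recovers lactate and other monocarboxylates. Sodium-coupled carriers in the brush border, the luminal membrane of these cells, bring the solutes in, and facilitative carriers and exchangers in the basolateral membrane let them out toward the blood. Some of these carriers work only as pairs of a heavy chain (the Slc3 family) and a light chain (part of the Slc7 family), and in the brush border several need a partner protein to reach the membrane. The genes described here are the carriers for sugars, amino acids and monocarboxylates of the Slc1, Slc2, Slc3, Slc5, Slc6, Slc7, Slc16, Slc36 and Slc38 families, matched by gene symbol. The families were chosen with earlier results of these data known. They comprised 142 probes of 89 genes among the 46643 probes of the array table that holds the B6 and NZW strains. In the second table, which holds BALB/c, DBA1 and 129/svj, 51 of 46147 probes of 43 genes carried the same search key as 74 of those probes, and the other 68 probes were read in B6 and NZW only, which left 46 genes with no probe in the second table. The member Slc7a6os is named for the strand opposite Slc7a6 and is not itself known as a carrier.

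Kidney cortex RNA had been taken from 15 mice of 5 inbred strains, 3 mice of each, all aged 2 months and all challenged with antibody against the glomerular basement membrane (anti-GBM), and hybridised to Illumina Mouse WG BeadChips, whose beads give every probe a signal and a detection p-value. The submitters call B6 and BALB/c (spelled BALB/C in the labels) resistant to anti-GBM nephritis, and DBA1, 129/svj and NZW sensitive. No allele beyond the strain, dose or interval after the challenge was given in the sources used here, and no unchallenged mouse was among the arrays, so a strain difference that existed before the challenge and a difference in the response to it cannot be told apart. Nothing in the labels gives the litter or cage of a mouse, and p-values measure the spread between these mice.

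All values below are log2 intensities after background correction and normalization within a table, and a level of 1 probe is compared only between mice, never with the level of another probe. A probe was tested if it was detected in at least 3 mice of its table, and a difference was called at an adjusted p below 0.05 over all tested probes. Median array signals were 81.1 to 89.8 in the table of B6 and NZW and 118.5 to 152 in the other, and mice of one strain correlated at 0.959 to 0.993. Mouse 3 of DBA1 stood furthest from its strain: over the tested carrier probes its median absolute deviation from the DBA1 mean was 0.406, against 0.08 to 0.258 in the other 14 mice. Cortex markers were in place, with the proximal tubule genes Slc34a1, Lrp2, Miox and Aqp1 detected in every B6 and NZW mouse, although the Gatm probe was detected in none.

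Detection divided the carriers. In B6 and NZW, 59 of the 142 probes were detected in all 6 mice and 65 in none, and 66 probes of 52 genes could be tested. In the other table, 17 of 51 probes were detected in all 9 mice and 23 in none, and 24 probes of 24 genes could be tested. Among the classical kidney carriers, the single probes for Slc16a1 and Slc16a4 (monocarboxylate carriers), Slc7a13 (an aspartate and glutamate carrier of the straight proximal tubule) and Slc36a2 (a proton-coupled glycine and proline carrier) were detected in no B6 or NZW mouse, and that for Slc3a2, the heavy chain of the basolateral exchangers, in 2 of 6. Slc3a1, the heavy chain of the brush border cystine carrier, had no probe with that symbol. Nothing can be read about these genes from a probe that stays at the background.

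In B6 against NZW, 26 of the 66 tested carrier probes differed (39.4%), where 18.9% of all 16766 tested probes did. Of these, 19 were lower in B6 and 7 higher, against 9.61% lower and 9.24% higher over all tested probes. They belonged to 24 genes, 17 of them lower and 7 higher in B6. The median difference over the tested carriers was -0.21 on the log2 scale and that of all tested probes was -0.04. When each array was instead scaled to a common 75th percentile, the median of all probes moved to -0.13 and the split of the carriers became 22 lower and 3 higher in B6. All called probes then split into 2269 lower and 1352 higher in B6. The count of called carrier probes was 12 without mouse 2 of B6 and 16 without mouse 1 of B6, where 10.8% and 11.7% of all tested probes passed. Of the 26 probes, 11 kept their call under every planned setting that could be run and without each mouse in turn. With Student's t-test after Benjamini-Hochberg adjustment 17 of the 26 kept it, where 11% of all tested probes passed. With replicate number as a block 19 did, where 15.7% passed. Losses named below for single genes of this pair are those under 75th percentile scaling and without single mice, not those under other settings. The tested carriers spanned a spread between mice of a strain of 0.034 to 0.676 (pooled SD), with a median of 0.178 against 0.161 for all tested probes.

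**Figure D1:**
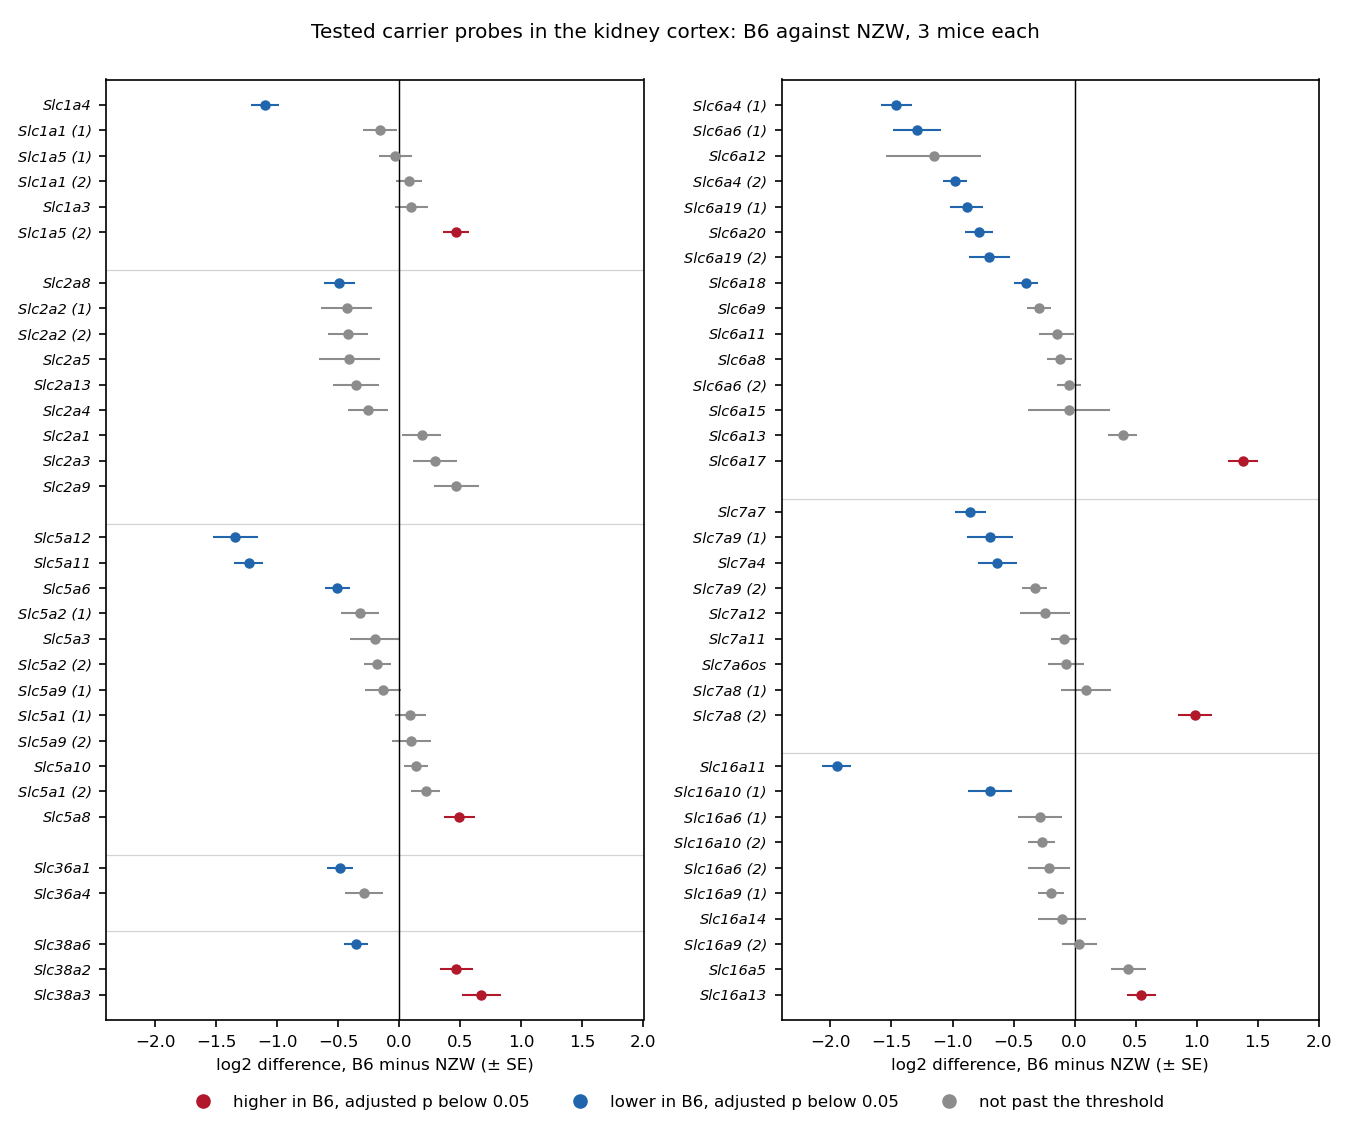
Log2 difference B6 minus NZW with its standard error (horizontal axis) for each of the 66 tested carrier probes (vertical axis), ordered by family and then by difference, and probes of one gene numbered in that order. Blue points passed the threshold as lower in B6 (19 probes), red points as higher in B6 (7 probes), and grey points did not pass. The Slc6 family holds 7 of the 19 blue points among its 15 probes, more than any other family, and also has the most tested probes. Over all tested probes 9.61% were lower in B6.

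The amino acid carriers Slc6a19, Slc6a18, Slc7a9 and Slc36a1 of the brush border set were lower in B6 on at least 1 probe, and Slc1a1 passed on neither of its probes. Slc6a19, the main sodium-coupled carrier for neutral amino acids in the brush border, read 10.29, 10.34 and 10.67 in the B6 mice and 11.34, 11.41 and 11.20 in the NZW mice on its first probe. Every B6 mouse was below every NZW mouse, and the difference was -0.88 ± 0.13 (SE; limma adjusted p = 0.00204). The second Slc6a19 probe gave -0.70 (limma adjusted p = 0.0217), a call that was lost without mouse 1 or 2 of B6 or mouse 2 or 3 of NZW. Slc6a20, whose probe has the accession of the gene now called Slc6a20b, a relative of the renal imino acid carrier Slc6a20a, read 7.90, 7.68 and 7.97 in B6 and 8.70, 8.55 and 8.65 in NZW. The strains did not overlap, at -0.78 ± 0.12 (limma adjusted p = 0.00189). Slc6a18, a close relative of Slc6a19 in the late proximal tubule, differed by less, at -0.40 ± 0.10 (limma adjusted p = 0.0268), again with no overlap: 12.92, 12.88 and 12.96 in B6 against 13.36, 13.23 and 13.36 in NZW. The Slc6a18 call was lost without any 1 of the mice other than mouse 2 of NZW.

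Slc7a9, the light chain of the brush border cystine and cationic amino acid carrier, had 2 tested probes. One read 6.46, 6.10 and 6.39 in B6 against 6.59, 7.24 and 7.19 in NZW (-0.69 ± 0.19, limma adjusted p = 0.0361), and this call was lost without any 1 of the mice other than mouse 1 of NZW. The other read 12.18, 12.16 and 12.32 in B6 against 12.48, 12.59 and 12.57 in NZW. Its difference of -0.33 ± 0.10 did not pass (limma adjusted p = 0.0606), and did not without any 1 of the mice. It passed in 6 of 9 alternative settings, among them 75th percentile scaling (-0.54), no background correction (-0.32) and Student's t-test at unadjusted P. On both probes every B6 mouse was below every NZW mouse. Slc36a1, a proton-coupled carrier of small amino acids, read 6.21, 6.21 and 6.24 in B6 and 6.76, 6.80 and 6.56 in NZW, at -0.49 ± 0.11 (limma adjusted p = 0.0145), a call lost without mouse 1 or 2 of B6. Slc1a1, the brush border glutamate and aspartate carrier, gave 0.08 and -0.16 on its probes, neither past the threshold (limma adjusted p = 0.673 and 0.474), and the first of these turned to -0.12 under 75th percentile scaling.

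The sodium-coupled glucose carriers of the brush border did not pass the threshold in this pair of strains. Slc5a2, which takes up most of the filtered glucose in the early proximal tubule, gave -0.18 ± 0.11 and -0.32 ± 0.16 on its probes (limma adjusted p = 0.316 and 0.204). Slc5a1, the high-affinity glucose carrier of the late proximal tubule, gave 0.09 ± 0.13 and 0.21 ± 0.12 (limma adjusted p = 0.675 and 0.268). Slc5a10, a mannose and fructose carrier of the brush border, gave 0.14 ± 0.10 (limma adjusted p = 0.392). The lower Slc5a1 difference and that of Slc5a10 turned to -0.07 each under 75th percentile scaling. For Slc5a1 and Slc5a2 the B6 and NZW mice overlapped on every probe.

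Other members of the Slc5 family did differ. Slc5a12, the low-affinity sodium-coupled lactate carrier of the brush border, read 9.68, 9.78 and 10.16 in B6 and 11.30, 10.89 and 11.47 in NZW. The difference was -1.34 ± 0.18, a level 2.54-fold lower in B6 (limma adjusted p = 0.00116), with no overlap. Slc5a8, the high-affinity carrier for the same kind of substrate, went the other way at 12.41, 12.28 and 12.09 in B6 against 11.63, 11.80 and 11.88 in NZW (0.49 ± 0.13, limma adjusted p = 0.0276). The strains did not overlap for Slc5a8 either, but its call was lost under 75th percentile scaling (0.29) and without any 1 of the mice other than mouse 3 of either strain. Slc5a11, a sodium-coupled carrier of myo-inositol, read 7.92, 7.80 and 8.08 in B6 and 9.13, 9.29 and 9.09 in NZW (-1.23 ± 0.12, limma adjusted p = 0.000139). Slc5a6, the carrier of biotin and pantothenate, was lower in B6 by a smaller amount (-0.51 ± 0.10, limma adjusted p = 0.00984), a call lost without mouse 2 of B6. Counted over the probes of the brush border carriers, 7 of 16 were lower in B6 and 1 higher (50% in all, against 18.9% of all tested probes), with a median difference of -0.32 against -0.04. Without the Slc6a20 probe the counts were 6 lower and 1 higher of 15.

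**Figure D2:**
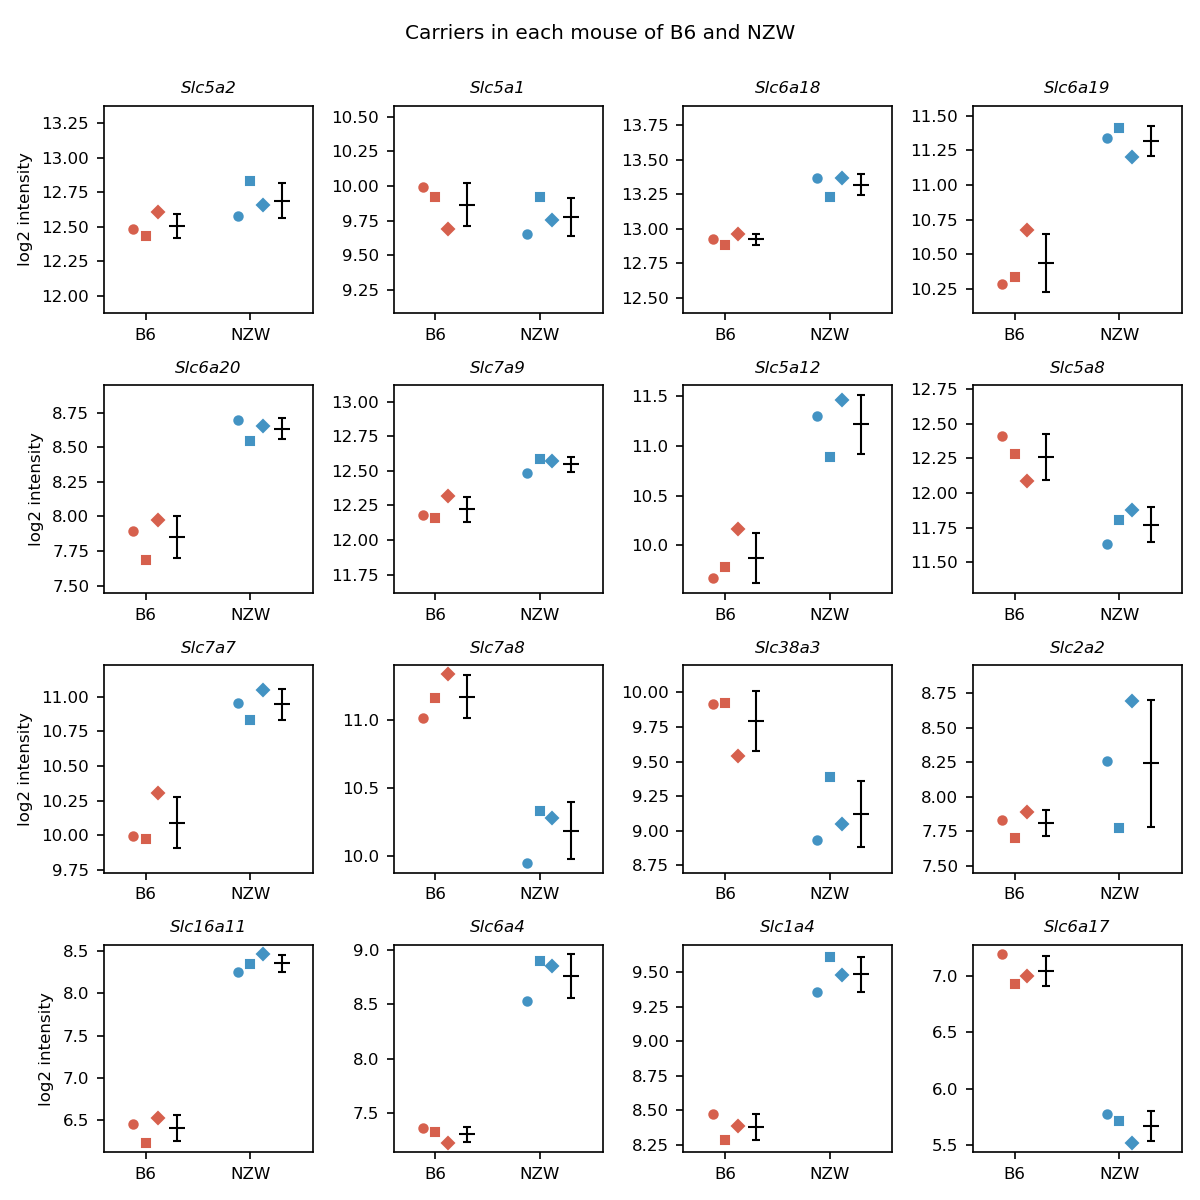
Log2 intensity (vertical axis) in each of the 3 B6 and 3 NZW mice for 16 carriers, 1 probe each; circles, squares and diamonds are mice 1, 2 and 3, and the black bar is the mean ± SD. For Slc6a19, Slc6a20, Slc5a12, Slc7a7 and Slc16a11 every B6 mouse lies below every NZW mouse, for Slc7a8, Slc38a3, Slc5a8 and Slc6a17 above, and for Slc5a1, Slc5a2 and Slc2a2 the strains overlap.

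On the basolateral side the light chains moved in opposite directions. Slc7a7, which exports cationic amino acids in exchange for neutral ones, read 9.99, 9.97 and 10.30 in B6 and 10.95, 10.83 and 11.05 in NZW, at -0.86 ± 0.13 (limma adjusted p = 0.00194). Slc7a8, the exchanger for large and small neutral amino acids, read 11.02, 11.16 and 11.34 in B6 and 9.95, 10.33 and 10.29 in NZW, at 0.98 ± 0.14 (limma adjusted p = 0.00156). Neither gene overlapped between the strains on these probes, and a second Slc7a8 probe gave 0.09 (limma adjusted p = 0.8) with overlapping mice. Slc38a3, the glutamine carrier that supplies the proximal tubule during acidosis, was higher in B6 at 9.91, 9.92 and 9.54 against 8.93, 9.39 and 9.05 (0.67 ± 0.16, limma adjusted p = 0.0199), with no overlap. That call was lost under 75th percentile scaling (0.52) and without mouse 1 or 2 of B6 or mouse 1 or 3 of NZW.

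Slc16a10, which carries aromatic amino acids, read 7.64, 7.05 and 7.33 in B6 and 7.90, 8.31 and 7.89 in NZW on 1 probe (-0.69 ± 0.18, limma adjusted p = 0.0286). Its second probe gave -0.27 (limma adjusted p = 0.126), and on both probes every B6 mouse was below every NZW mouse. The call on the first probe was lost without any 1 of the mice other than mouse 1 of B6. Slc6a6, the taurine carrier, differed on a probe designed on a RIKEN cDNA clone (6.89, 6.97 and 6.85 in B6, 7.98, 8.70 and 7.91 in NZW; -1.29 ± 0.20, limma adjusted p = 0.00239). Its other probe read 13.58 to 13.63 in B6 and 13.61 to 13.69 in NZW and did not pass (-0.05 ± 0.10, limma adjusted p = 0.779), so the probes of this gene disagree. Slc6a12, the betaine carrier, gave -1.16 with wide spread between the mice (limma adjusted p = 0.0750). Slc6a13, a carrier of GABA, gave 0.39 (limma adjusted p = 0.0513). Of 13 tested probes of basolateral carriers, 3 were lower in B6 and 2 higher (38.5% in all, against 18.9% of all tested probes).

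Of 9 tested probes of the facilitative hexose carriers, 1 passed (11.1%, against 18.9% of all tested probes), that of Slc2a8, a hexose carrier kept inside cells (-0.49 ± 0.13, limma adjusted p = 0.0285), and this call was lost without mouse 1 or 2 of B6 or mouse 2 or 3 of NZW. Slc2a2, through which glucose leaves the early proximal tubule, gave -0.43 ± 0.21 and -0.42 ± 0.16 on its probes (limma adjusted p = 0.196 and 0.112). On the first of these the NZW mice spread from 7.77 to 8.69 and overlapped the B6 mice, and without mouse 2 of NZW the difference was -0.66 and passed. Slc2a1, the glucose carrier of most other cells and of the late proximal tubule, gave 0.18 ± 0.16, Slc2a5, the fructose carrier, -0.41 ± 0.25, and Slc2a9, a urate carrier, 0.47 ± 0.19, none of which passed (limma adjusted p = 0.476, 0.300 and 0.123).

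Several of the larger differences were in carriers outside the classical reabsorption set. Slc16a11, a monocarboxylate carrier known from liver and other tissues, read 6.46, 6.23 and 6.52 in B6 and 8.26, 8.34 and 8.46 in NZW. The difference was -1.95 ± 0.12, a level 3.86-fold lower in B6 (limma adjusted p = 8.6e-06), with no overlap. Its genomic neighbour in the family, Slc16a13, was higher in B6 at 8.40, 8.58 and 8.73 against 8.08, 8.0 and 7.98 (0.55 ± 0.12, limma adjusted p = 0.0124), a call lost without mouse 2 or 3 of B6. Slc6a4, the serotonin carrier, was lower in B6 on both probes: 7.36, 7.32 and 7.22 against 8.53, 8.90 and 8.86 on the first (-1.46 ± 0.13, limma adjusted p = 8.03e-05), and -0.98 ± 0.10 on the second (limma adjusted p = 0.000219). Slc1a4, an exchanger for alanine, serine and cysteine, read 8.47, 8.28 and 8.39 in B6 and 9.36, 9.61 and 9.48 in NZW (-1.10 ± 0.11, limma adjusted p = 0.00023). Its relative Slc1a5, a glutamine exchanger, was higher in B6 on 1 of 2 probes (0.46 ± 0.11, limma adjusted p = 0.0179), a call lost under 75th percentile scaling and without mouse 1 or 2 of B6.

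Slc6a17, a vesicular carrier of neutral amino acids best known from neurons, had the largest rise in B6 among the tested carriers, at 7.20, 6.93 and 7.0 against 5.77, 5.71 and 5.52 in NZW (1.38 ± 0.12, limma adjusted p = 8.84e-05), with no overlap. A further 3 members passed with smaller differences: Slc38a2, a stress-regulated carrier of small neutral amino acids (0.46), Slc38a6 (-0.36) and Slc7a4, an orphan of the cationic amino acid carriers (-0.63). The Slc38a6 call was lost without any 1 of the 6 mice, and that of Slc38a2 under 75th percentile scaling (0.32) and without any 1 other than mouse 1 of NZW. The Slc7a4 call was lost without mouse 1 or 2 of either strain.

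Markers of the proximal tubule and of other cells differed beside the carriers, and their part in the result was not tested. Of the 9 tested probes of 7 proximal tubule marker genes, 4 were lower in B6 and none higher (44.4% in all, against 18.9% of all tested probes). They were a second probe of the endocytic receptor Lrp2 (-1.16), its partner Cubn (-0.60), the water channel Aqp1 (-0.53) and the inositol oxygenase Miox (-0.41). The summed signal of the list was 75220 to 89580 in B6 and 95650 to 101300 in NZW, without overlap. In bulk cortex fewer cells of a type and less RNA per cell cannot be told apart. Of 4 tested probes of tubule injury genes, 75% passed: that of Havcr1 was lower in B6 (-2.77, limma adjusted p = 0.0132), and Lcn2 was higher (1.80, limma adjusted p = 0.0282) along with Spp1. The summed signal of that list was 8922 to 17790 in B6 and 7240 to 9312 in NZW. Of 8 tested macrophage probes, 1 was higher in B6 (12.5%, below the 18.9% of all tested probes), that of the complement gene C1qb (1.02, limma adjusted p = 0.000826). The summed signal of the macrophage list was 2886 to 5498 in B6 and 1969 to 2556 in NZW, without overlap. Of 6 tested distal tubule probes, 2 of Slc12a3 were higher in B6 (1.46 and 0.77) and that of Pvalb was lower (-2.38), 50% in all, with overlapping sums. Of 12 tested red blood cell probes, 3 of Hbb-b1 were higher in B6 (25%, against 18.9% of all tested probes). No tested probe of the loop of Henle, collecting duct, endothelium, T cell, B cell or neutrophil lists passed limma, and 2 endothelial probes had an unadjusted p below 0.05.

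Partners and regulators of the carriers were read as a separate list. Of 28 tested probes of 21 such genes, 5 were lower in B6 and 1 higher, a share of 21.4% that was near the 18.9% of all tested probes. By direction, 9.61% of all tested probes were lower in B6 and 9.24% higher. The summed signal of the list was 110400 to 112800 in B6 and 128700 to 130300 in NZW, without overlap. Both probes of Pdzk1, the scaffold that holds carriers at the brush border, were lower (-0.44 and -0.64, limma adjusted p = 0.0141 and 0.00475), as were single probes of the gluconeogenic enzymes Pck1 (-0.55) and G6pc (-0.44) and of the glutamine synthetase gene Glul (-0.60). Tmem27, the partner that brings Slc6a19 and its relatives to the brush border, gave -0.25 (limma adjusted p = 0.226), and Hnf4a, a transcription factor of the proximal tubule, 0.00 (limma adjusted p = 0.985). The probe called higher was 1 of 2 for Atf4, a regulator of amino acid carriers. It was detected in the 3 B6 mice and in no NZW mouse, so that it was tested only through the strain where it is high, and it was at least 4.29-fold higher in B6 (limma adjusted p = 5.97e-07). The other Atf4 probe, detected in all 6 mice, gave a difference of 0.00.

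For the members that moved together, promoter letters were read from RefSeq (build GRCm38.p6, the genome of the C57BL/6J strain). All 89 member genes matched a RefSeq gene, 51 by accession and 38 by symbol, and 64 had a promoter in the table, which covers 250 bases before the start site and 50 after. The motif searched was GTTAAT on either strand, the core of the sites of hepatocyte nuclear factor 1, a regulator of many proximal tubule carriers. It was present in 7.1% of all 32851 promoters and in 8.24% of genes, counting a gene when any of its promoters held it. Among genes lower in B6 with a promoter, 3 of 13 held it (Slc16a10, Slc36a1 and Slc7a7), and among those higher in B6, 0 of 4 did. Among the members not called it was 2 of 19, among those not tested 3 of 28, and among all members with a promoter 8 of 64 (12.5%). These are letters in a window and not measured binding. The 250 bases before the start site are given for Slc16a10 and Slc36a1, which hold the motif (in capitals), and for Slc16a11, the member with the largest difference, whose window does not.
Slc16a10, chr10:40142255-40142504, minus strand: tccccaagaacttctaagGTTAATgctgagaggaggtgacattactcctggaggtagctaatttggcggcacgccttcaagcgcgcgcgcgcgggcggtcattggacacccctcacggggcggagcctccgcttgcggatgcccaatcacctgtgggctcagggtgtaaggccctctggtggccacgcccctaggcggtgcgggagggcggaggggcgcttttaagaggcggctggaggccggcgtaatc
Slc36a1, chr11:55204090-55204339, plus strand: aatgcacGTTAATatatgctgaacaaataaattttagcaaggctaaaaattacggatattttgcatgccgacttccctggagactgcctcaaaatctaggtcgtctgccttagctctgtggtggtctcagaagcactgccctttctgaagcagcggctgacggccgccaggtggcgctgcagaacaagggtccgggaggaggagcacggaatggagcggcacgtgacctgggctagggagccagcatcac
Slc16a11, chr11:70213660-70213909, plus strand: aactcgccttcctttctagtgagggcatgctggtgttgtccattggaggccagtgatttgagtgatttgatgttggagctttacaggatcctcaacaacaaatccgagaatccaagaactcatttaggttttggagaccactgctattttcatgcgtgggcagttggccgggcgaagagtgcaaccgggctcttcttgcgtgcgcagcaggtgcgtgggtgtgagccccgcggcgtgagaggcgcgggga

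In the table of BALB/c, DBA1 and 129/svj fewer carriers could be read and fewer differed. Between BALB/c and DBA1, 3 of 24 tested probes passed (12.5%, against 5.75% of all 15818 tested probes), and each was higher in BALB/c, as were 2.86% of all tested probes. Between BALB/c and 129/svj, 2 of 24 passed (8.33%, against 4.83%), both higher in BALB/c, where 2.47% of all tested probes were higher and 2.36% lower. Between the sensitive strains DBA1 and 129/svj, 2 of 24 passed (8.33%, against 4.49%), in opposite directions, where 2.18% of all tested probes were higher in DBA1 and 2.31% lower. These comparisons share their mice, so their values are given side by side. The spread between mice of a strain was wider here for the carriers, at a median pooled SD of 0.326 against 0.238 for all tested probes of the table.

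Slc5a1 was low in DBA1. It read 6.93, 6.76 and 6.51 in the DBA1 mice, 7.92, 8.12 and 8.76 in BALB/c and 8.58, 8.78 and 8.37 in 129/svj. All DBA1 mice were below all mice of the other strains, by 1.53 ± 0.22 against BALB/c (2.89-fold, limma adjusted p = 0.00265) and by 1.85 ± 0.22 against 129/svj (3.59-fold, limma adjusted p = 0.000764). With Student's t-test in place of limma, the Slc5a1 call against BALB/c was lost (adjusted p = 0.102) and that against 129/svj held. BALB/c and 129/svj overlapped and did not pass (-0.31, limma adjusted p = 0.590).

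Slc5a2 was low in 129/svj. It read 10.26, 9.61 and 9.83 in the 129/svj mice, 11.41, 11.33 and 11.54 in BALB/c and 11.62, 10.74 and 11.02 in DBA1. All 129/svj mice were below the others, by 1.53 ± 0.24 against BALB/c (2.88-fold, limma adjusted p = 0.0035) and by 1.23 ± 0.24 against DBA1 (limma adjusted p = 0.0142), the latter call being lost without mouse 2 of 129/svj. With Student's t-test in place of limma, both Slc5a2 calls were lost (adjusted p = 0.0643 against BALB/c and 0.297 against DBA1). BALB/c and DBA1 overlapped and did not pass (0.30, limma adjusted p = 0.575). The 2 main sodium-coupled glucose carriers were thus each low in a different sensitive strain, Slc5a1 in DBA1 and Slc5a2 in 129/svj. Each reading rests on the only probe of its gene in this table, so no second probe could be compared.

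Slc16a10 separated BALB/c from both sensitive strains of its table. It read 8.31, 8.29 and 7.78 in BALB/c, 6.68, 6.82 and 6.34 in DBA1 and 7.10, 6.28 and 7.20 in 129/svj. The difference was 1.51 ± 0.26 against DBA1 (limma adjusted p = 0.00681) and 1.27 ± 0.26 against 129/svj (limma adjusted p = 0.0196), and the latter call was lost without mouse 1 or 2 of BALB/c. Both calls were lost with Student's t-test in place of limma (adjusted p = 0.0701 against DBA1 and 0.235 against 129/svj). Against NZW, B6 was lower for Slc16a10, so the resistant strain was the higher one in the BALB/c table and the lower one in the B6 table. The search keys of the Slc5a1, Slc5a2, Slc16a10 and Slc16a14 rows each belong to 2 probes of the B6 and NZW table, so that neither probe could be paired and the difference between the tables was not tested for these genes.

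Slc16a14, a monocarboxylate family member with little known function, read 7.27, 7.83 and 7.07 in BALB/c against 5.77, 5.30 and 6.73 in DBA1 (1.46 ± 0.36, limma adjusted p = 0.0449), and was detected in 2 of 3 DBA1 mice. The call held without mouse 3 of DBA1 and without mouse 3 of 129/svj and was lost without any 1 of the other 7 mice. It was also lost with Student's t-test in place of limma (adjusted p = 0.257). Slc5a12 and Slc6a19 showed how far mouse 3 of DBA1 lay from its strain. For Slc5a12 the DBA1 mice read 9.93, 9.91 and 11.11 against 11.94, 11.69 and 10.91 in BALB/c, and the difference of 1.19 did not pass (limma adjusted p = 0.0958). Without mouse 3 of DBA1 it was 1.59 and passed, and the count of differing carriers between BALB/c and DBA1 rose from 3 to 6, where 5.58% of all tested probes passed. For Slc6a19 that mouse read 10.13 against 8.74 and 8.30 in the other DBA1 mice.

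**Figure D3:**
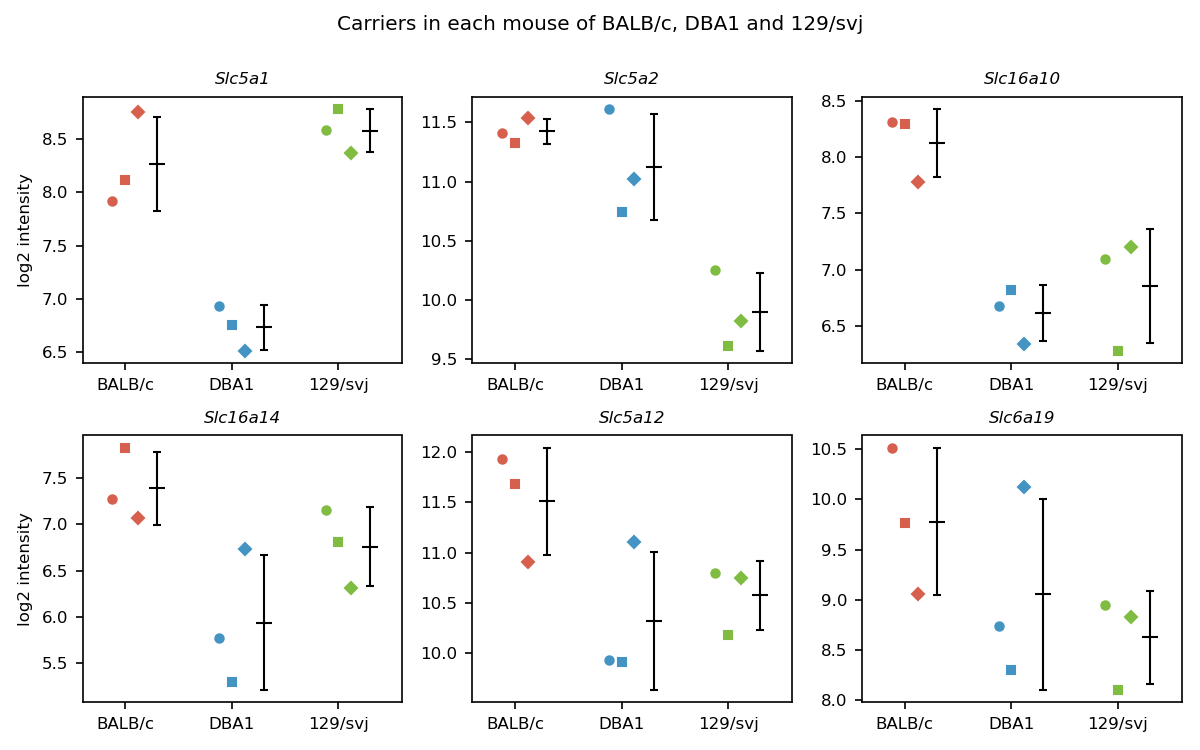
Log2 intensity (vertical axis) in each of the 3 BALB/c, 3 DBA1 and 3 129/svj mice for 6 carriers, 1 probe each; circles, squares and diamonds are mice 1, 2 and 3, and the black bar is the mean ± SD. Slc5a1 is lowest in the 3 DBA1 mice, Slc5a2 in the 3 129/svj mice, Slc16a10 is highest in the 3 BALB/c mice, and for Slc5a12 and Slc6a19 mouse 3 of DBA1 (diamond) lies above the other DBA1 mice.

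The proximal tubule markers gave no call in this table: 0 of 6 tested probes passed limma in any of the 3 comparisons (at an unadjusted p below 0.05, 1 did between BALB/c and DBA1, 2 between BALB/c and 129/svj and 1 between DBA1 and 129/svj), and their summed signals overlapped (38400 to 46190 in BALB/c, 35200 to 46300 in DBA1, 27980 to 39790 in 129/svj). Distal tubule markers did differ between BALB/c and DBA1, with 2 of 4 tested probes higher in BALB/c (50%, against 5.75% of all tested probes called). These were Pvalb (3.25, limma adjusted p = 0.0307) and Calb1 (1.25, limma adjusted p = 0.0448). The summed signal of the distal tubule list was 11960 to 12460 in BALB/c and 7122 to 10830 in DBA1. The collecting duct sum was 1721 to 3013 in BALB/c and 944.1 to 1163 in DBA1, and the macrophage sum 308.9 to 508.6 in BALB/c and 511.1 to 722 in DBA1. These 3 sums did not overlap between BALB/c and DBA1, and their part in the carrier differences was not tested. Of 14 tested probes of partners and regulators, 1 passed, that of G6pc between BALB/c and DBA1 (0.57, limma adjusted p = 0.0452), a share of 7.14% where 5.75% of all tested probes passed. The summed signal of that list was 50050 to 56250 in BALB/c, 46690 to 49250 in DBA1 and 50580 to 58090 in 129/svj.

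Resistant and sensitive strains were compared over both tables with 30 carrier probes whose search key was unique in each table, of which 17 could be tested. The contrast was the mean of the within-table differences, B6 minus NZW and BALB/c minus the mean of DBA1 and 129/svj. Of the 17, 4 passed (23.5%, against 13.3% of the 6896 tested pairs), and all 4 were lower in the resistant strains, as were 5.54% of all pairs: Slc16a11 (-1.14 ± 0.09, limma adjusted p = 2.45e-07), the Slc6a6 probe on the RIKEN clone (-0.82 ± 0.20, limma adjusted p = 0.0113), Slc5a11 (-0.62 ± 0.15, limma adjusted p = 0.0113) and Slc6a4 (-0.59 ± 0.12, limma adjusted p = 0.00418). With strain as a random block and class and table as additive terms, 1 of the 17 passed, Slc16a11 at -1.02 (limma adjusted p = 0.0325), where 1.81% of all pairs did. That fit gives the mice of a strain 1 correlation, shared by all probes (0.1685). Mice thus still count largely as replicates, and it is not a test on the 5 strains as units. The other 3 gave adjusted p of 0.163 to 0.347 in that fit.

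The B6 and NZW mice gave the larger part of these means. For Slc5a11 the difference was -1.23 ± 0.23 in B6 minus NZW and 0.00 ± 0.20 in the BALB/c table, and for Slc6a4 it was -0.98 ± 0.19 and -0.20 ± 0.16. For Slc16a11 it was -1.95 ± 0.13 and -0.33 ± 0.11, and in the BALB/c table the probe was detected in none of the BALB/c mice, 3 of the DBA1 mice and 1 of the 129/svj mice, so the level in BALB/c is a bound and the mean of both tables is not a measured size. For the Slc6a6 probe on the RIKEN clone it was -1.29 ± 0.30 and -0.34 ± 0.26, and in the BALB/c table that probe was detected in 2 of the BALB/c mice, 1 of the DBA1 mice and 2 of the 129/svj mice, so its value there lies near the background. Over the 17 probes, 8 were lower in the resistant strain in both tables, 2 were higher in both and 7 went opposite ways. This counts signs whatever their size. The 8 include Slc5a11, and also Slc36a4 and Slc7a11, whose probes were detected in no mouse of the BALB/c table. The 2 include Slc2a9, whose probe was detected in no B6 mouse and in 1 NZW mouse. Signs were not counted over all pairs, so nothing is read from these counts. Slc2a13, a myo-inositol and proton symporter, was lower in both (-0.36 ± 0.26 and -0.72 ± 0.23), and its mean of -0.54 did not pass (limma adjusted p = 0.0558).

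The difference between the tables was tested directly. It passed for 4 of 17 carriers (23.5%, against 11.8% of all pairs), with a higher value in the BALB/c table for 3 (4.64% of all pairs) and a lower one for 1 (7.13%). Slc5a12 was lower in B6 than in NZW (-1.34 ± 0.32) and higher in BALB/c than in the sensitive strains of its table (1.06 ± 0.28), a difference between the tables of 2.41 ± 0.42 (limma adjusted p = 0.00107). Slc6a13 went the other way round (0.39 ± 0.17 and -0.48 ± 0.15; difference -0.87 ± 0.23, limma adjusted p = 0.0199), and this call was lost under 75th percentile scaling and without mouse 1 or 3 of B6, mouse 1 of NZW or mouse 1 of BALB/c. Slc16a11 (1.62 ± 0.17, limma adjusted p = 1.01e-05) and Slc5a11 (1.23 ± 0.30, limma adjusted p = 0.0127) passed with the lower value in B6 minus NZW. For Slc16a11 the size of 1.62 is not a measured difference, since the probe was detected in none of the BALB/c mice and in 1 of the 129/svj mice. Slc6a19 gave -0.70 ± 0.41 and 0.94 ± 0.36, and its difference of 1.63 ± 0.54 did not pass (limma adjusted p = 0.0668) but did at 1.90 without mouse 3 of DBA1 and at 1.99 without mouse 3 of BALB/c.

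**Figure D4:**
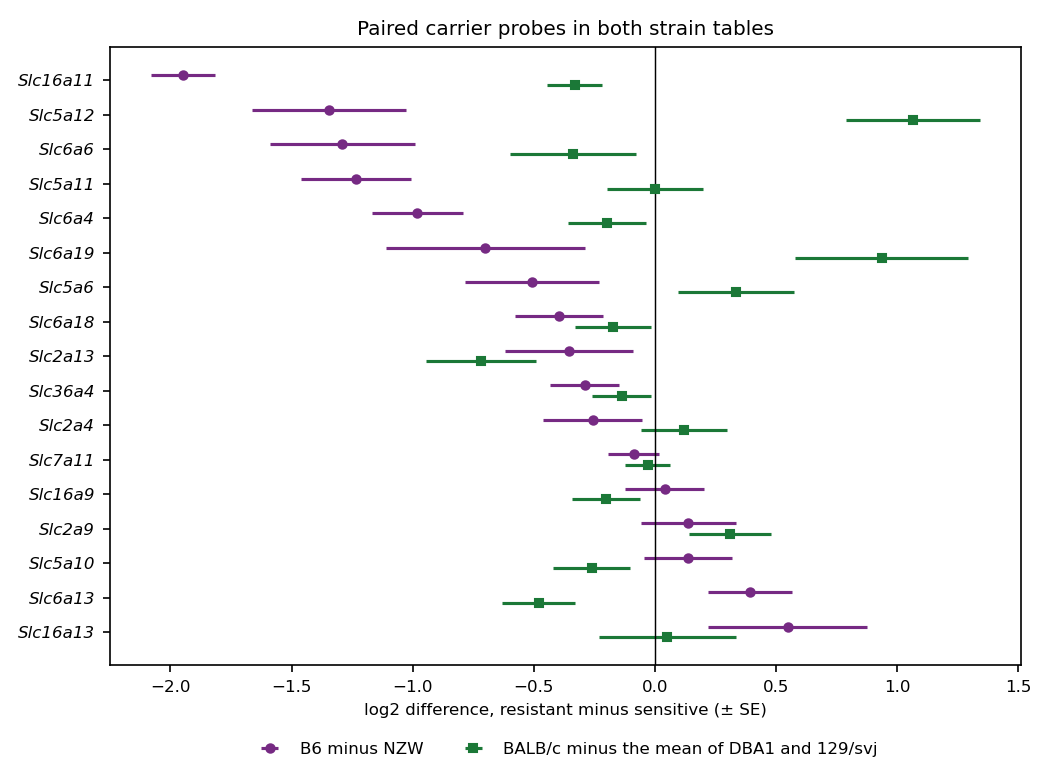
Log2 difference between resistant and sensitive strains with its standard error (horizontal axis) for the 17 paired carriers (vertical axis), in the table of B6 and NZW (circles) and in that of BALB/c, DBA1 and 129/svj (squares). Slc5a12 lies at -1.34 in the first and at 1.06 in the second, and Slc16a11 is below 0 in both.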

How the data were processed

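The values the authors deposited are mean bead signal intensities, not normalized, and the detection p-value of every probe on its array, written by BeadStudio per the labels. Kidney cortex RNA of 15 mice (18 arrays) falls into 2 tables, B6 with NZW and BALB/c with DBA1 and 129/svj, and no strain is in both. In the second table mouse 1 of each strain had a repeat array, and both arrays were averaged (correlations 0.987 to 0.989).

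The deposited intensities were corrected for background with the normexp model of limma, whose background came from detection p-values (offset 16), then quantile normalized over all probes of a table and taken to the log2 scale. The offset compresses differences of dim probes. Tests used lmFit and eBayes of limma 3.58.1 (R 4.3.3) with 1 coefficient per strain, on 16766 probes, 15818 probes and 6896 pairs detected at 0.05 in 3 or more mice, with Benjamini-Hochberg adjustment over all of them. Tables were read with Python 3.11.15 and pandas 2.3.3. Named genes are 24 kidney carriers whatever they did, the 12 largest called differences of each comparison, genes among these whose probes disagree, and members called over both tables. The members and lists were chosen with earlier results of these data known. The fit was tested on simulated data in which 200 probes were shifted by 1 log2 unit and no other strain difference was present. It called 68% of them in B6 against NZW, 53.5% to 58% between the other strains, 98% in the mean of both tables and 56.5% in the difference between tables. Of its calls, 1.74% to 8.33% were on probes left unchanged. For the mean of both tables the simulated shift was the same in B6 and BALB/c. The real strains differed in more probes and not always alike in both tables, so these shares need not hold for them. The alternatives covered background, normalization, filter, variance model, the methods' t-test, replicate number, repeat arrays, strain as a block and each mouse left out. Between 30.5% and 36.4% of the probes of an array were detected, and the number of arrays limits the precision.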

Additional observations from a re-analysis of the deposited data

Results flagged for a closer look

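For 4 carriers the difference between resistant and sensitive strains differed between the tables in a direct test, the difference in the BALB/c table minus that in the B6 table. Slc5a12, the brush border lactate carrier, gave 2.41, with the resistant strain lower in the B6 table and higher in the other. Slc16a11 gave 1.62 and Slc5a11 gave 1.23, both with the lower value in B6 minus NZW. The Slc16a11 probe was detected in none of the BALB/c mice and in 1 of the 129/svj mice, so its value is not a measured size. Slc6a13 gave -0.87, with the resistant strain higher in the B6 table and lower in the other. The tables hold different strains, so strain and table cannot be told apart.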

How the results depend on the processing

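Of the 26 carrier probes called between B6 and NZW, none reversed, and 12 kept their call without each mouse in turn (12 to 21 calls, 12 without mouse 2 and 16 without mouse 1 of B6). Over all tested probes, 10.8% passed without mouse 2 of B6 and 11.7% without mouse 1, against 18.9% with every mouse. The planned settings other than leaving out a mouse gave 18 to 32 calls there (11% of all tested probes passed in the setting with 18 and 28.5% in that with 32). Without single mice the calls were 2 to 6 between BALB/c and DBA1 (6 without mouse 3 of DBA1), 1 to 3 between BALB/c and 129/svj (1 without mouse 1 or 2 of BALB/c), 1 to 2 between DBA1 and 129/svj (1 without mouse 2 of 129/svj), 4 to 6 in the mean of both tables and 3 to 5 in the difference between tables. In the same order, 2.89% to 7.61%, 2.84% to 6.17%, 2.73% to 4.74%, 10.1% to 14.9% and 8.61% to 13.6% of all tested probes passed. With the methods' t-test at unadjusted P, the counts were 6, 4 and 7 for BALB/c against DBA1, BALB/c against 129/svj and the mean of both tables (17.3%, 14.1% and 24.3% of all tested probes). After Benjamini-Hochberg they were 0 for BALB/c against DBA1, 1 for BALB/c against 129/svj and 1 for DBA1 against 129/svj (2.52%, 2.02% and 1.37%). The 1 for BALB/c against 129/svj was lower in BALB/c and was neither of the probes called by limma. The mean of both tables had 2 calls (of 11 tested) among probes detected in every mouse, where 13.7% of all such pairs passed. It had 1 with strain as a random block and additive terms (1.81% of all pairs), a fit chosen after seeing the data. Under 75th percentile scaling, uncalled differences between B6 and NZW reversed for one probe each of Slc1a1 (-0.125), Slc5a1 (-0.0732) and Slc5a10 (-0.0658). The mean of both tables for Slc5a12 was 0.0318 in the additive block fit and ran from -0.246 to 0.0099 without single mice, and that of Slc6a19 ran from -0.0662 to 0.298. Without single mice, uncalled differences also changed sign for the second Slc7a8 probe in B6 minus NZW (-0.083 to 0.255) and, in DBA1 minus 129/svj, for Slc1a1 (-0.0896 to 0.152), Slc6a18 (-0.21 to 0.167), Slc5a10 (-0.0825 to 0.318), Slc2a9 (-0.089 to 0.273) and Slc6a19 (-0.109 to 0.802). The causes were not tested. Mice with the same number correlated at -0.26 to 0.388 in their deviations, and not every mouse correlated best with its own number (BALB/c mouse 1 reached 0.4 with DBA1 mouse 3). The numbers were taken as names of mice only. Deviations from means of 3 mice cannot show whether mice of the same number shared a batch. With the replicate block 20, 2, 2, 2, 5 and 4 probes were called in the comparisons in the order of the report (15.7%, 5.78%, 4.67%, 4.29%, 12.8% and 11.1% of all tested probes). Slide could not be used as a block, since the headers give none. In all, 65 of 142 and 23 of 51 carrier probes were detected in no mouse of their table, and differences there could not be read.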
